A study of Mus musculus with 6 samples.

Results

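The 52 cell cycle and DNA replication genes described here were a list of symbols looked up among the 22063 genes of the RNA-seq table, and all 52 were found there. They comprised 12 genes of the G1/S transition (D- and E-type cyclins, their kinases and E2F factors), 6 inhibitors (CDK inhibitors and pocket proteins), 14 DNA replication genes and 20 genes of G2 and mitosis (G2/M). The libraries were 6 cultures of primary fibroblasts from the hearts of *Tet3* f/f mice, in which both *Tet3* alleles are floxed. *Tet3* encodes a dioxygenase that oxidises 5-methylcytosine in DNA. The 3 GFP libraries came from cells transduced with an adenovirus coding for GFP (Ad-GFP, genotype labelled as control), and the 3 CRE libraries from cells transduced with one coding for Cre recombinase (Ad-Cre, genotype labelled as knockout). Both groups carried the floxed alleles and both received TGF-β, which drives fibroblasts to become matrix-producing myofibroblasts. No library without TGF-β, and no Ad-Cre library from cells without floxed alleles, was analysed here, so loss of *Tet3* and exposure to Cre cannot be told apart. Age, sex and the number of mice behind each culture are not given in the sources used here, so p-values measure the spread between these cultures.

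Entry into the cell cycle begins with D-type cyclins, which bind CDK4 and CDK6 and phosphorylate the retinoblastoma protein RB. Phosphorylated RB releases E2F factors, which switch on cyclin E and the genes of DNA replication. Cyclin A, cyclin B and CDK1 then drive cells through G2 and mitosis, and CDK inhibitors hold the kinases back. Fibroblasts of the adult heart are largely quiescent, and they enter the cycle in injured tissue and in culture. RNA-seq measures the RNA of these genes in a whole culture. It does not count cells in a phase, and fewer cells in a phase and less RNA per cell cannot be told apart.

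The promoters of the replication genes and of the mitotic genes differed in E2F and CHR letters, given here as a description with no test. The sequences, credited to RefSeq, covered 250 bases before to 50 bases from the transcription start on build GRCm38.p6 and were matched by symbol for 41 of the 52 genes (46 promoters). E2F factors bind sites such as TTTCCCGC, TTTGGCGC, TTTCGCGC and TTTGCCGC, and these letters were searched on both strands. They occurred in 2.26% of all 32851 promoters, in 2.61% of the 27025 genes when any promoter of a gene counted, and by the same count in 6 of the 11 replication genes matched, but in only 1 of the 16 G2/M genes matched. The cell cycle genes homology region (CHR), TTTGAA, which mitotic promoters often carry, occurred in 17.9% of all promoters and 20.2% of all genes, in 11 of 16 G2/M genes and in 1 of 11 replication genes. The CCAAT box, searched as CCAAT and not contained in either of the other motifs, occurred in 37.4% of all promoters and 41.1% of all genes, in 14 of 16 G2/M genes and in 8 of 11 replication genes.

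Windows of 30 bases around E2F letters are shown for 3 replication genes that were lower in CRE (*Cdc6*, *Mcm3* and *Mcm7*) and for 2 that did not pass the test (*Mcm5* and *Mcm6*). Each is written 5′ to 3′ on the strand of the gene, with the matched letters in capitals. Where the match is on the other strand the capitals are its reverse complement.
Cdc6, chr11:98908002-98908031, plus strand: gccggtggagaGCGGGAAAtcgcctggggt
Mcm3, chr1:20820275-20820304, minus strand: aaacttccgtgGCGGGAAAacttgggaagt
Mcm7, chr5:138171849-138171878, minus strand: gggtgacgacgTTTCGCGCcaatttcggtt
Mcm5, chr8:75109349-75109378, plus strand: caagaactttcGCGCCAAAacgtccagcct
Mcm6, chr1:128359734-128359763, minus strand: gattggacgggTTTGGCGCgaagtagctca

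Windows around TTTGAA are shown for the mitotic kinase gene *Cdk1*, the proliferation marker *Mki67*, the anaphase activator *Cdc20* and the kinetochore gene *Cenpf*, the one of these that was lower in CRE.
Cdk1, chr10:69352910-69352939, minus strand: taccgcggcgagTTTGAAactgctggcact
Mki67, chr7:135716460-135716489, minus strand: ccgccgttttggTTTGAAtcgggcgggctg
Cdc20, chr4:118437344-118437373, minus strand: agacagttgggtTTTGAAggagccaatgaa
Cenpf, chr1:189688067-189688096, minus strand: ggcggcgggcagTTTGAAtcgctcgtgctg

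The E2F letters were found in replication genes with and without a call. They were present in 3 of the 6 replication genes that were lower in CRE and in 3 of the 4 matched genes that did not pass the test. *Mcm2*, which fell most among the MCM genes, had none of these letters in this window. Neither did *Pcna*, the one replication gene called higher, whose call was kept in 9 of the 16 other fits.

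Total counts were between 17002126 and 20343590 per library. Levels are given as CPM (counts relative to the TMM-scaled library size), and as FPKM, which the authors had scaled by gene length, where genes are compared with each other. CRE was compared with GFP over 12862 genes with edgeR's quasi-likelihood test, and a gene is called higher or lower at a Benjamini-Hochberg adjusted p under 0.05. *Tet3* had 1044, 965 and 1000 counts in GFP and 642, 649 and 637 in CRE, so that CRE held 60.8% of the GFP level (log2 fold change -0.72, SE 0.08, adjusted p = 5.36e-05). Of all genes tested, 51.2% were called, 25.5% as higher and 25.7% as lower, and the CPM of the 2 groups did not overlap in 59.6%. The TMM factors were 0.944 to 0.947 in GFP and 1.05 to 1.06 in CRE, so calls of small changes depended on the scaling.

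The cultures expressed fibroblast markers at high levels, and endothelial, smooth muscle and pericyte markers were expressed as well. Of 10 fibroblast markers, 9 were lower in CRE, and their summed level was 39110 to 40360 CPM in GFP and 21960 to 24030 CPM in CRE. Most of that sum came from *Col1a1*, *Col1a2* and *Col3a1* (means of 13720, 11560 and 9799 CPM in GFP). *Tcf21* and *Thy1* were the lowest of the 10, at means of 36.1 and 26.4 CPM in GFP. Of 15 endothelial markers, 12 were lower and 1 was higher (1154 to 1217 against 1017 to 1067 CPM in sum). The 1 that was higher, *Eng*, made up most of that sum, and the 14 others summed to 517 to 577 CPM in GFP and 238 to 273 CPM in CRE, with a median log2 fold change over the 15 of -1.20. Smooth muscle and pericyte genes numbered 11, of which 7 fell and 1 rose (2288 to 2618 against 1374 to 1439 CPM). Of 12 macrophage markers, 6 could be tested and 3 were lower (59.2 to 67.1 against 35.3 to 38.6 CPM). Only 1 of 13 cardiomyocyte markers, 0 of 8 lymphocyte markers and 2 of 4 Schwann cell markers had counts enough to be tested, with *Myh6*, *Myl3* and *Myl7* at 0 in all 6 libraries. The cardiomyocyte marker tested, *Nppb*, was higher in CRE at low counts (2, 1 and 3 in GFP and 28, 21 and 13 in CRE, edgeR adjusted p = 5.65e-04), and that list summed to 0.958 to 1.30 CPM in GFP and 1.90 to 3.11 CPM in CRE. The part of these markers in the results below was not tested.

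Of the 52 genes, 51 could be tested, and calls went in both directions. In CRE, 9 were higher, 14 were lower and 28 did not pass the test, so that 45.1% were called beside 51.2% of all genes. Their median log2 fold change was -0.12 beside 0.01 over all genes, and their median absolute log2 fold change equalled that of all genes (0.25). The groups did not overlap for 27 of the 51, a smaller share than the 59.6% of all genes. By phase, 8 of 11 tested G1/S genes, 5 of 6 inhibitors, 7 of 14 replication genes and 3 of 20 G2/M genes were called. GFP1 was the lowest GFP library for 31 of the 52 genes, which is 59.6% beside 34.8% of all genes tested, and without it 8 genes were higher and 18 were lower. When libraries were scaled by size alone, the median over all genes went from 0.01 to 0.17 (log2), and the split of the 51 genes became 14 higher and 11 lower. Over all 12862 genes that scaling called 5523 higher and 2085 lower. On log2(FPKM + 1) the split of the 51 genes was 12 higher and 11 lower, beside 4976 and 1916 over all genes.

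**Figure D1:**
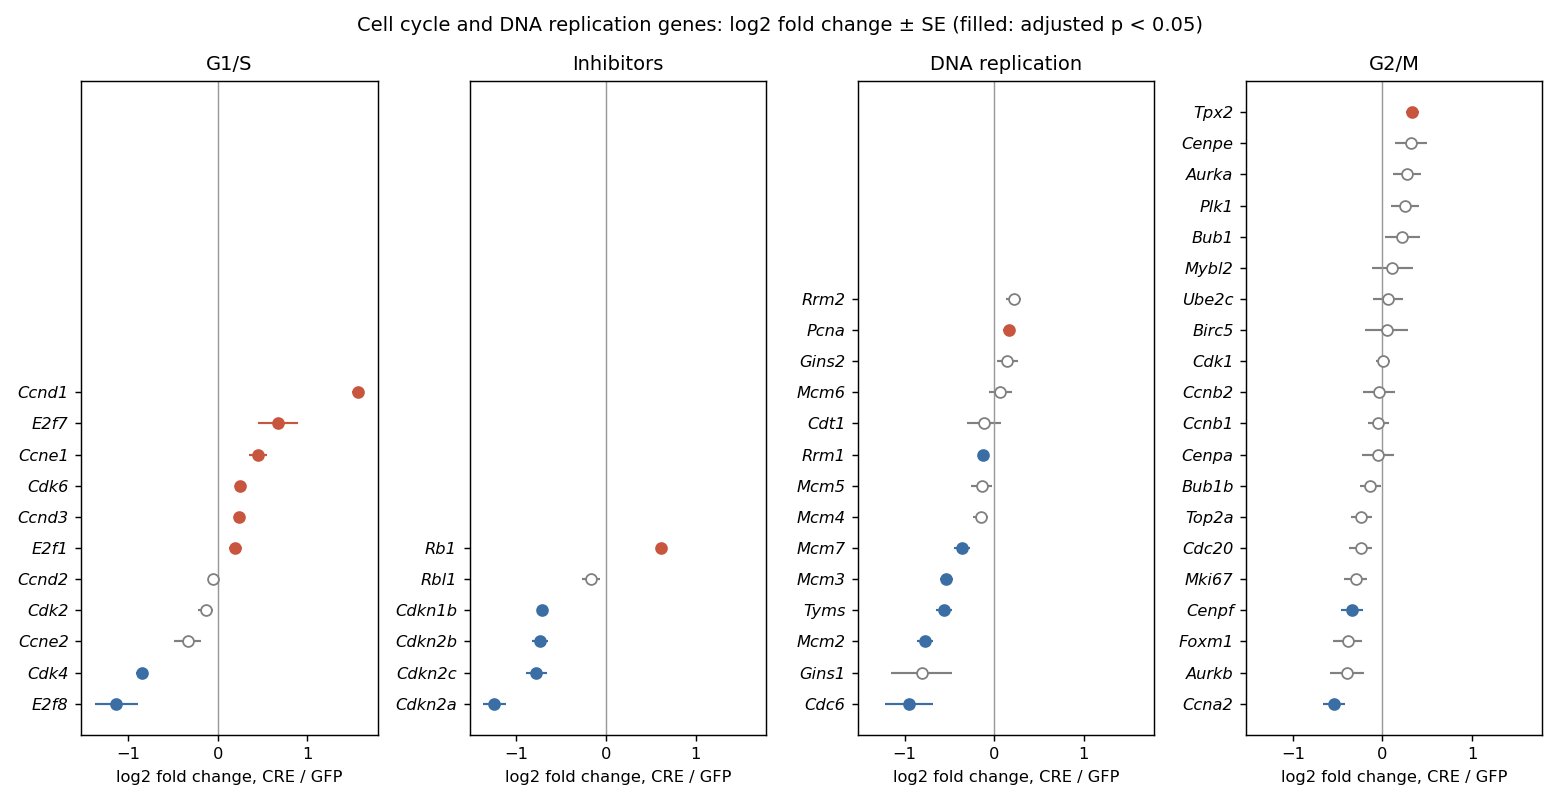
Log2 fold change of CRE over GFP for the 51 tested genes, in 4 panels by phase, with bars showing the SE. Filled points passed the adjusted p threshold (red higher, blue lower) and open points did not. The filled points run from -1.24 for Cdkn2a to 1.57 for Ccnd1, and 17 of the 20 G2/M points are open.

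Among the G1/S genes, the cyclin D1 gene rose while the gene of its partner kinase CDK4 fell. *Ccnd1* (chr7:144929931-144939925, minus strand) was at 15.9, 17.9 and 17.6 CPM in GFP and at 50.7, 53.1 and 48.4 CPM in CRE. Every CRE library was above every GFP library, and the difference between the means, 17.1 ± 1.11 and 50.7 ± 2.35 CPM (SD, n = 3 each), was 2.97-fold (log2 fold change 1.57, SE 0.07, edgeR adjusted p = 2.40e-07). It was the largest change in either direction among the 51 tested genes. *Cdk4* (chr10:127063534-127067920, plus strand) was at 182, 165 and 164 CPM in GFP and at 95.8, 87.5 and 102 CPM in CRE. CRE held 55.7% of the GFP level, with no overlap (log2 fold change -0.84, SE 0.06, edgeR adjusted p = 4.05e-06). Exons of *Ccnd1* and *Cdk4* overlap those of a gene on the other strand, LTO1 and *Tspan31*, which were both higher in CRE (log2 fold changes of 0.50 and 0.19). Whether counting used the strand is not stated, so reads in the shared bases cannot be assigned.

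The other D-type cyclin genes differed by less. *Ccnd3* was at 76.8, 82.0 and 81.8 CPM in GFP and at 89.7, 102 and 92.2 CPM in CRE (log2 fold change 0.24, SE 0.06, edgeR adjusted p = 0.00586). *Ccnd2* was at 577, 530 and 567 CPM in GFP and at 538, 537 and 535 CPM in CRE, and did not pass the test (log2 fold change -0.06, 95% interval -0.14 to 0.03, edgeR adjusted p = 0.316). Cyclin D1 thus rose from a low base. Per length, *Ccnd2* was the highest of the 3 in both groups (84.9 FPKM in GFP and 90.8 FPKM in CRE), followed by *Ccnd3* (44.3 and 54.1 FPKM) and *Ccnd1* (4.33 and 14.4 FPKM). The share of *Ccnd1* in the summed FPKM of the D-type cyclins was 3.24% ± 0.24 in GFP and 9.01% ± 0.20 in CRE (SD, n = 3 each), and that of *Ccnd2* was 63.6% and 57.1%. Such shares within a library do not depend on its scaling. For the *Ccnd1* share, the exact permutation test (two-sided) gave p = 0.1, the smallest that 3 libraries against 3 allow.

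*Cdk6*, the gene of the other D-type cyclin kinase, was at 73.2, 72.3 and 71.7 CPM in GFP and at 86.0, 89.3 and 83.5 CPM in CRE. The groups did not overlap (log2 fold change 0.25, SE 0.05, edgeR adjusted p = 0.00101). Per length *Cdk4* stayed far above *Cdk6* (88.3 against 8.50 FPKM in GFP, and 55.9 against 10.9 FPKM in CRE). The share of *Cdk6* in their summed FPKM was 8.80% ± 0.54 in GFP and 16.3% ± 1.70 in CRE (exact p = 0.1). In summed CPM the pair went from 243 ± 10.9 to 181 ± 4.13.

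Of the E-type cyclins, which bind CDK2, *Ccne1* was at 10.3, 9.47 and 11.1 CPM in GFP and at 13.5, 13.7 and 14.9 CPM in CRE (log2 fold change 0.45, SE 0.10, edgeR adjusted p = 0.00296). *Ccne2* was at 7.89, 9.97 and 8.62 CPM in GFP and at 6.34, 8.58 and 6.12 CPM in CRE, overlapping, and did not pass (log2 fold change -0.34, adjusted p = 0.0898), although it did without GFP1 (-0.41, adjusted p = 0.0499) or without CRE2 (-0.50, adjusted p = 0.0199). Nor did *Cdk2* (log2 fold change -0.13, adjusted p = 0.225). The direction of *Cdk2* and of *Ccnd2* was positive when libraries were scaled by size alone or by FPKM.

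The E2F factors differed among themselves. *E2f8*, an atypical E2F that represses E2F targets, was at 3.85, 3.10 and 2.91 CPM in GFP and at 1.07, 1.77 and 1.64 CPM in CRE, without overlap (log2 fold change -1.13, SE 0.24, edgeR adjusted p = 0.00275). The other atypical repressor, *E2f7*, was at 3.60, 3.04 and 3.06 CPM in GFP and at 3.60, 6.70 and 5.17 CPM in CRE. It was called higher (log2 fold change 0.67, SE 0.22, adjusted p = 0.0280) although CRE1 lay at the level of GFP1, and it did not pass without CRE2 (0.45, adjusted p = 0.116) or without GFP2, GFP3 or CRE3 (adjusted p of 0.0729, 0.0860 and 0.0648). The activator *E2f1* was at 18.1, 17.4 and 17.8 CPM in GFP and at 20.5, 20.7 and 19.95 CPM in CRE. Its groups were apart by a small margin (log2 fold change 0.20, SE 0.07, edgeR adjusted p = 0.0330), and leaving out any 1 library put its adjusted p between 0.0512 and 0.0863. *E2f2*, another activator, had 19, 9 and 9 counts in GFP and 8, 15 and 8 in CRE and was too low to be tested.

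**Figure D2:**
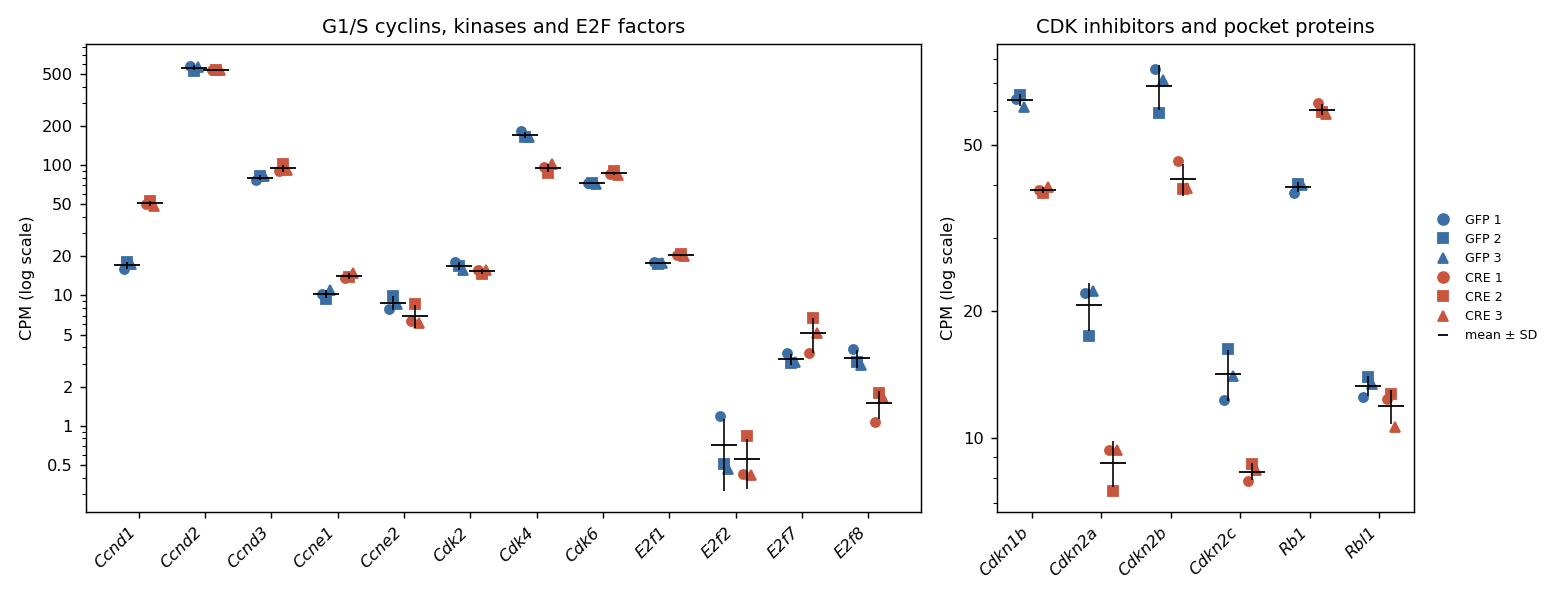
CPM (log axis) of the 12 G1/S genes and the 6 inhibitors in each library, with GFP in blue and CRE in red, symbols for replicates and black bars for mean ± SD. The CRE points of Ccnd1 lie near 50.7 against 17.1 for GFP, and those of Cdk4, E2f8 and all 4 CDK inhibitor genes lie below the GFP points.

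All 4 CDK inhibitor genes among the members were lower in CRE, while *Rb1* was higher. *Cdkn2a* (chr4:89274471-89294653, minus strand) was at 22.2, 17.5 and 22.3 CPM in GFP and at 9.34, 7.47 and 9.34 CPM in CRE. CRE held 42.2% of the GFP level, and the groups were far apart (log2 fold change -1.24, SE 0.13, edgeR adjusted p = 2.41e-05). This locus encodes both the CDK4 and CDK6 inhibitor INK4A and, from another first exon, ARF, which stabilises p53. The gene count holds both transcripts. Its neighbour *Cdkn2b* (chr4:89306299-89311039, minus strand), encoding INK4B, was at 75.7, 59.5 and 71.4 CPM in GFP and at 45.6, 39.2 and 39.4 CPM in CRE (log2 fold change -0.73, SE 0.09, edgeR adjusted p = 9.93e-05). *Cdkn2c*, encoding the related inhibitor INK4C and located elsewhere on the same chromosome, was at 12.3, 16.2 and 14.1 CPM in GFP and at 7.89, 8.64 and 8.39 CPM in CRE (log2 fold change -0.78, SE 0.12, edgeR adjusted p = 3.32e-04). Together these INK4 genes summed to 104 ± 9.18 CPM in GFP and 58.4 ± 3.91 CPM in CRE (SD, n = 3 each).

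*Cdkn1b*, encoding KIP1, which inhibits cyclin E and cyclin A complexes with CDK2, was at 64.1, 65.7 and 61.5 CPM in GFP and at 39.0, 38.4 and 39.6 CPM in CRE. The replicates were tight, and CRE held 61.2% of the GFP level (log2 fold change -0.71, SE 0.05, edgeR adjusted p = 2.63e-06). *Rb1*, encoding RB, was at 38.4, 40.2 and 40.1 CPM in GFP and at 62.7, 59.8 and 59.1 CPM in CRE (log2 fold change 0.61, SE 0.05, edgeR adjusted p = 7.11e-06). The groups of *Rb1* did not overlap, and CRE was 1.53-fold higher. *Lpar6* and *Rcbtb2*, whose exons overlap those of *Rb1* on the other strand, were lower in CRE (log2 fold changes of -0.58 and -0.44). *Rbl1*, encoding the pocket protein p107, was at 12.5, 13.97 and 13.4 CPM in GFP and at 12.4, 12.7 and 10.6 CPM in CRE and did not pass the test (log2 fold change -0.16, 95% interval -0.36 to 0.03, adjusted p = 0.203).

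Of 9 inhibitor genes outside the 52, 4 were higher, 1 was lower and 4 did not pass, which is 55.6% called beside 51.2% of all genes. *Cdkn1a*, the p53 target that encodes CIP1, was higher, with 3983, 4111 and 4667 counts in GFP and 5746, 5149 and 5157 in CRE (log2 fold change 0.26, edgeR adjusted p = 0.00239). Its mean level was 240.5 CPM in GFP and 288.6 CPM in CRE, above the summed INK4 genes in both groups. The 9 genes summed to 459.5 ± 8.58 CPM in GFP and 552.8 ± 28.4 CPM in CRE (SD, n = 3 each). The 6 inhibitors among the members went the other way in sum (220.3 ± 6.37 and 169.8 ± 6.12 CPM). The antiproliferative gene *Btg2* rose more (log2 fold change 1.62, SE 0.09, adjusted p = 5.08e-07) and its relative *Btg1* fell slightly (-0.25, adjusted p = 0.00154). *Cdkn1c*, encoding KIP2, had 4, 4 and 3 counts in GFP and 21, 44 and 17 in CRE (log2 fold change 2.79, SE 0.53, adjusted p = 0.00139), a low level in both groups.

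Among the 14 replication genes, 6 were lower and 1 was higher, which is 50% called beside 51.2% of all genes, with a median log2 fold change of -0.15. The MCM proteins form a ring with 1 copy of each of the 6 subunits, MCM2 to MCM7, which is the replicative helicase. *Mcm2* was at 25.7, 28.9 and 26.7 CPM in GFP and at 16.5, 13.9 and 17.2 CPM in CRE, 58.5% of the GFP level (log2 fold change -0.77, SE 0.09, edgeR adjusted p = 6.54e-05). *Mcm3* was at 21.8, 21.1 and 21.3 CPM in GFP and at 13.8, 15.2 and 15.3 CPM in CRE (log2 fold change -0.53, SE 0.08, edgeR adjusted p = 2.20e-04). *Mcm7* was at 20.3, 21.8 and 21.7 CPM in GFP and at 14.6, 17.9 and 17.2 CPM in CRE (log2 fold change -0.36, SE 0.09, edgeR adjusted p = 0.00683). In these 3 genes the groups did not overlap. Exons of other genes overlap *Mcm7*, and of these *Ap4m1* and *Cops6* did not pass the test (log2 fold changes of -0.24 and 0.02).

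The other 3 subunits did not pass the test. *Mcm6* was at 16.1, 22.9 and 19.2 CPM in GFP and at 21, 22.3 and 17.9 CPM in CRE (log2 fold change 0.07, 95% interval -0.18 to 0.32). The log2 fold changes of *Mcm4* and *Mcm5* were -0.15 and -0.14, with 95% intervals of -0.31 to 0.01 and -0.36 to 0.08. The direction of both was positive when libraries were scaled by size alone or by FPKM. In their summed FPKM, the share of *Mcm2* was 17.2% ± 0.19 in GFP and 12.5% ± 1.69 in CRE (SD, n = 3 each, exact p = 0.1), and that of *Mcm6* was 13.9% ± 1.73 and 18.6% ± 2.46 (exact p = 0.2). Their summed level was 136 ± 8.36 CPM in GFP and 110 ± 5.42 CPM in CRE.

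Of the factors that load and activate the helicase, *Cdc6* was at 2.18, 3.10 and 2.13 CPM in GFP and at 0.97, 1.27 and 1.58 CPM in CRE (log2 fold change -0.95, SE 0.27, edgeR adjusted p = 0.0130). These are 35 to 55 and 18 to 30 counts, and the call was lost without GFP2 (adjusted p = 0.0554) or without CRE1 (0.0534). *Gins1*, encoding a subunit of the GINS complex of the active helicase, was lower by a similar amount on 11 to 27 counts and did not pass (log2 fold change -0.81, SE 0.34, adjusted p = 0.0692). The loading factor *Cdt1* and the GINS subunit gene *Gins2* had overlapping groups and did not pass.

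Of the 3 genes of nucleotide supply, 2 were lower. *Tyms*, encoding thymidylate synthase, was at 30.8, 29.3 and 31.1 CPM in GFP and at 23.6, 17.9 and 20.5 CPM in CRE (log2 fold change -0.56, SE 0.09, edgeR adjusted p = 6.35e-04). *Rrm1* and *Rrm2* encode the subunits of ribonucleotide reductase. *Rrm1* was at 120.1, 126 and 121 CPM in GFP and at 115, 115 and 108 CPM in CRE (log2 fold change -0.12, SE 0.05, adjusted p = 0.0474). The call of *Rrm1* was kept in 4 of the 16 other fits, its log2 fold change turned to 0.04 with libraries scaled by size alone, and it did not pass with DESeq2 (adjusted p = 0.101) or without GFP2, GFP3, CRE1, CRE2 or CRE3 (0.0744 to 0.178). *Rrm2* was at 15.2, 17.6 and 14.9 CPM in GFP and at 18.0, 18.8 and 18.6 CPM in CRE, without overlap, and did not pass (log2 fold change 0.22, adjusted p = 0.0557). *Pcna*, the sliding clamp of the replication fork, was at 54.8, 51.6 and 50.9 CPM in GFP and at 57.7, 62.9 and 55.1 CPM in CRE. It was 1.12-fold higher (log2 fold change 0.16, SE 0.06, adjusted p = 0.0469), and it did not pass without GFP2, GFP3, CRE1 or CRE2 (adjusted p of 0.111, 0.143, 0.0733 and 0.1696). With libraries scaled by size alone, 3 replication genes were higher and 4 were lower. The summed level of the 14 genes was 379 ± 13.4 CPM in GFP and 341 ± 3.61 CPM in CRE, without overlap, but 140.1 to 145.9 FPKM in GFP and 143 to 147 FPKM in CRE, which overlapped.

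**Figure D3:**
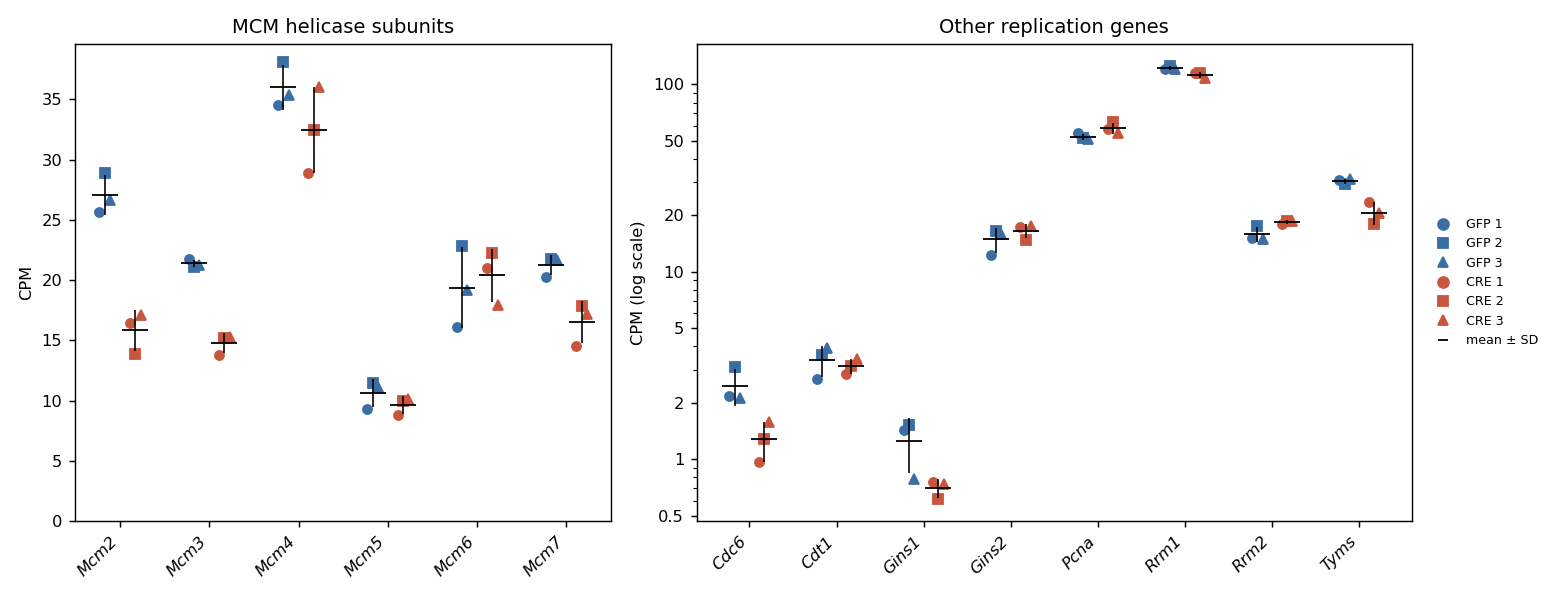
CPM of the 6 MCM subunit genes (left, linear axis) and of the 8 other replication genes (right, log axis) in each library, with GFP in blue and CRE in red, symbols for replicates and black bars for mean ± SD. Mcm2, Mcm3 and Mcm7 lie lower in every CRE library than in any GFP library, while Mcm4, Mcm5 and Mcm6 overlap.

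Of 45 other replication factors, 9 were higher and 11 were lower, which is 44.4% called beside 51.2% of all genes, with a median log2 fold change of -0.02. The fork protection gene *Timeless* had the largest change (log2 fold change -0.98, SE 0.14, edgeR adjusted p = 2.99e-04), with 100, 142 and 133 counts in GFP and 66, 69 and 64 in CRE. The catalytic subunit of DNA polymerase α, *Pola1*, and thymidine kinase, *Tk1*, were lower too (-0.77 and -0.75, adjusted p of 6.28e-04 and 0.0273).

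Most G2/M genes did not pass the test. Of the 20, 2 were lower, 1 was higher and 17 were not called, which is 15% called beside 51.2% of all genes. Their median log2 fold change was -0.04. Their median absolute log2 fold change was 0.24, close to the 0.25 of all genes, so few calls did not mean smaller changes. *Ccna2*, the cyclin A gene of S and G2 phase, was at 10.8, 14.7 and 13.8 CPM in GFP and at 9.18, 9.58 and 8.34 CPM in CRE (log2 fold change -0.54, SE 0.13, edgeR adjusted p = 0.00491). *Exosc9*, whose exons overlap it on the other strand, was higher (0.30). *Cenpf* was at 8.70, 11.7 and 11.2 CPM in GFP and at 8.16, 8.47 and 8.44 CPM in CRE (log2 fold change -0.34, SE 0.12, adjusted p = 0.0418), and it passed without GFP1 but not without any other 1 library (adjusted p of 0.0890 to 0.141). *Tpx2*, which activates Aurora A at the spindle, was at 19.8, 22.0 and 23.0 CPM in GFP and at 26.9, 28.1 and 26.7 CPM in CRE (log2 fold change 0.33, SE 0.07, edgeR adjusted p = 0.00336). In all 3 the groups did not overlap.

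The 17 others ranged in log2 fold change from -0.40 for *Aurkb* (adjusted p = 0.106) to 0.32 for *Cenpe* (adjusted p = 0.161). The kinase gene that drives mitosis, *Cdk1*, had overlapping groups, at 18.2, 19.4 and 20.2 CPM in GFP and at 20.7, 18.9 and 18.5 CPM in CRE (log2 fold change 0.01, 95% interval -0.15 to 0.16). Its partner *Ccnb1* had a log2 fold change of -0.05 (95% interval -0.28 to 0.18). *Mki67* was at 37.5, 54.0 and 40.9 CPM in GFP and at 31.4, 40.5 and 35.9 CPM in CRE, overlapping (log2 fold change -0.30, 95% interval -0.55 to -0.04, adjusted p = 0.0808). *Top2a*, encoding the topoisomerase that untangles sister chromatids, and *Foxm1*, encoding a factor that switches on mitotic genes, had log2 fold changes of -0.23 and -0.39 (adjusted p of 0.127 and 0.0700). The remaining 10 were *Ccnb2*, *Aurka*, *Bub1*, *Bub1b*, *Cdc20*, *Plk1*, *Mybl2*, *Birc5*, *Cenpa* and *Ube2c*. Of the 17, *Aurkb*, *Foxm1* and *Cdc20* had CRE libraries below all GFP libraries, and the groups of the others overlapped.

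GFP1 stood apart for the G2/M genes. It was the lowest GFP library for 17 of the 20 G2/M genes (85%) and 8 of the 14 replication genes, beside 34.8% of all genes tested. The summed level of the G2/M genes was 220, 297 and 252 CPM in GFP1 to GFP3 and 230, 263 and 235 CPM in CRE1 to CRE3, so the spread within GFP was wider than the difference between the groups. Without GFP1, 5 G2/M genes were lower and 1 was higher, and *Mki67* (log2 fold change -0.40, adjusted p = 0.0133), *Top2a* (-0.35, adjusted p = 0.00972) and *Foxm1* (-0.50, adjusted p = 0.0176) passed. Without CRE2, *Top2a* passed as well (-0.35, adjusted p = 0.0365), and without GFP2, where 3 G2/M genes were higher, *Cenpe* did (0.57, adjusted p = 0.00632). With libraries scaled by size alone, 4 G2/M genes were higher and 1 was lower.

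**Figure D4:**
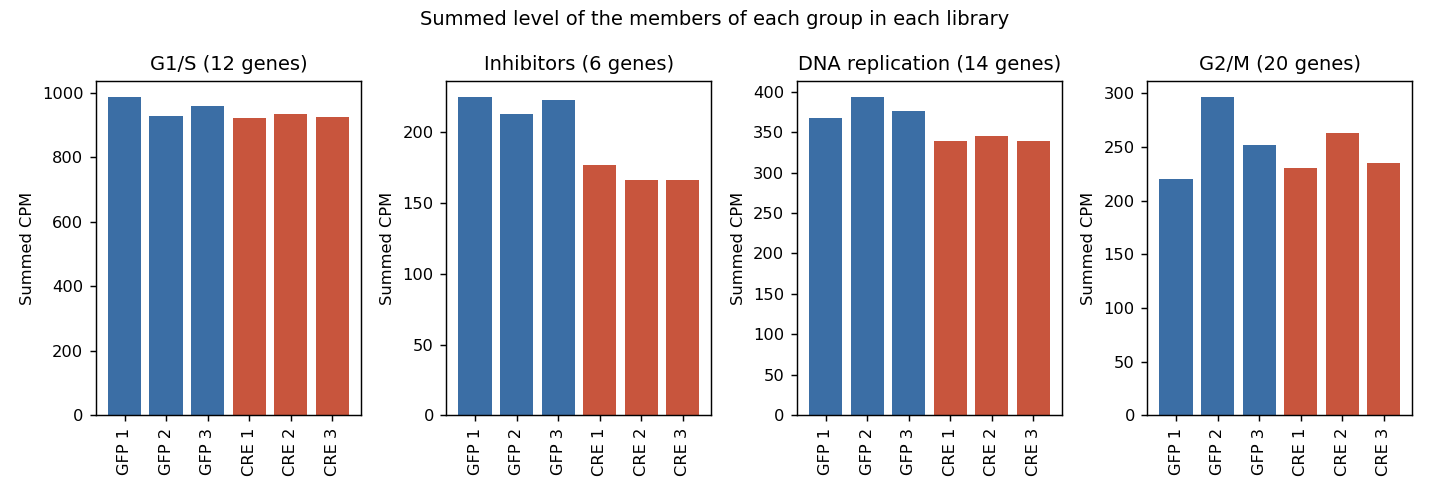
Summed CPM of the genes of each phase in each library, with GFP in blue and CRE in red. The 3 CRE bars of the 6 inhibitors among the members and of the replication genes are lower than all 3 GFP bars. For the replication genes this did not hold in FPKM. The G2/M bars overlap, with GFP1 at 220 and GFP2 at 297.

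Of 65 other mitotic genes, 8 were higher and 8 were lower, with a median log2 fold change of -0.05. *Gtse1*, which encodes a microtubule-associated protein of G2 and mitosis, had 252, 293 and 337 counts in GFP and 622, 610 and 653 in CRE (log2 fold change 1.03, SE 0.07, edgeR adjusted p = 1.48e-06). The kinetochore gene *Spc25* (0.74) and the F-box gene *Ccnf* (0.60) were higher, and the kinesin gene *Kif15* was lower (-0.66). Of 19 other G1/S regulators, 2 were higher, *E2f6* and *Tfdp2* (log2 fold changes of 0.47 and 0.43), and 3 were lower, *Cks1b*, *Tfdp1* and *E2f4* (-0.67, -0.24 and -0.22). Over these 138 genes, 23 were higher and 23 were lower, 33.3% beside 51.2% of all genes. Leaving out GFP2, GFP3, CRE1 or CRE3 left 14, 15, 14 and 15 of them lower. Scaling by library size alone gave 42 higher and 7 lower, beside 5523 higher and 2085 lower of all 12862 genes.

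Of the 23 called members, 15 kept their call and direction in all 16 other fits. They were *Ccnd1*, *Ccnd3*, *Ccne1*, *Cdk4*, *Cdk6*, *E2f8*, *Cdkn1b*, *Cdkn2a*, *Cdkn2b*, *Cdkn2c*, *Rb1*, *Mcm2*, *Mcm3*, *Tyms* and *Tpx2*. Of these 15, *Ccnd3*, *Ccne1*, *Cdk6*, *Tpx2*, *Mcm3* and *Tyms* did not reach the study's fold threshold (over 1.5 or under 0.66), which is not counted among the 16 fits. The other 8 (*E2f1*, *E2f7*, *Mcm7*, *Cdc6*, *Rrm1*, *Pcna*, *Ccna2* and *Cenpf*) lost it in at least 1 fit, *Mcm7* only with scaling by library size alone (adjusted p = 0.0835) and *Ccna2* only on FPKM. Exons of another gene overlap those of 18 of the 52 genes, 16 of them on the other strand.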

How the data were processed

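RNA-seq was analysed for 6 libraries, grouped and numbered by their titles. Per the study's methods, reads were trimmed with Trimmomatic, aligned to GRCm38 with HISAT2 and counted per gene with HTSeq-count, and the raw counts were deposited by the authors for each library. FPKM values by Cufflinks were deposited by the authors beside them. Tool versions and use of strand are not given in the sources used here, and the labels and methods name different RNA and library kits. Columns of the authors' own comparison (group means, fold change, p and FDR) were not used.

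Counts were tested in R 4.3.3 with edgeR 4.0.16 (filterByExpr with minimum count 10 and minimum total 15, TMM, two-sided quasi-likelihood test, Benjamini-Hochberg over 12862 genes). The test was also run on simulated data, where false calls were more frequent than the adjusted p threshold of 0.05 allows. Far fewer genes were changed there than were called here, so that run sets no error rate for these calls. SE is the absolute log2 fold change over the square root of F. Intervals are nominal 95% intervals from the normal distribution and are narrower than the F test would give. That of *Top2a* (-0.468 to -0.000326) left out 0 at an unadjusted p of 0.0777 in the edgeR test. A total of 3 counts, the smallest level read as above 0, was 0.156 to 0.186 CPM. Depth and intervals cover counting and culture spread only. Chi-square tests of replicate pairs gave 4.05 to 12.1 per degree of freedom, above the 1 of sampling noise, so none was counted as a repeat. Alternatives were other scalings, filters, DESeq2 1.42.0, limma 3.58.1 on voom values and on log2(FPKM + 1) and log2(FPKM + 0.1), a replicate block, each library left out, and the study's threshold (unadjusted p, fold over 1.5 or under 0.66). Positions are from GENCODE M21. Exact permutation tests used scipy 1.17.1.

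The members and the lists of other genes were chosen with earlier results of these data known. In each phase the called members, up to 8, are given in full, with *Ccnd1*, *Cdk1*, *Mki67*, *Pcna*, *Cdkn1b*, *Cdkn2a*, *Rb1* and *E2f1* always, and of each other list the 4 largest called changes, except that 1 gene this rule would name is not reported here. *E2f4*, and genes whose exons overlap a member's, were named after values were seen. The fits of the *Ccnd1*, *Cdk4* and *Mcm2* shares on counts or without 1 library, and those of the other pathway genes, were chosen after seeing the data.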

Additional observations from a re-analysis of the deposited data

How the results depend on the processing

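The counts of higher and lower members changed little with RLE scaling or a minimum of 10 counts in every library, and those of inhibitors (1 higher, 4 lower) did not change under any alternative. Scaling by library size alone gave 14 members higher, with 3 replication genes higher and G2/M genes at 4 higher and 1 lower. Other pathway genes went from 23 higher and 23 lower to 42 and 7. All 12862 genes went from 3277 higher and 3306 lower to 5523 and 2085. Upper-quartile scaling gave 2 replication genes higher and 1 G2/M gene lower. On log2(FPKM + 1) and log2(FPKM + 0.1), 2 replication and 3 G2/M genes were higher and 0 G2/M genes were lower, with other pathway genes at 41 and 40 higher and 6 and 7 lower. Over all genes these fits called 4976 and 4989 higher and 1916 and 1909 lower. No replication gene was called higher (0) without the filter, with DESeq2 or with voom, where *Pcna* missed the threshold. The study's threshold called 3 members higher and 9 lower, among the latter *Gins1*, which was not called by adjusted p, with 2 G1/S genes higher, 0 replication genes higher and 3 lower, 0 G2/M genes in either direction, and 6 and 7 of the other pathway genes. Over all 12862 genes that threshold called 967 higher and 1323 lower. Leaving out 1 library gave 6 to 9 members higher and 11 to 18 lower, with 4 to 5 G1/S genes higher and 2 to 3 lower, 0 to 1 replication genes higher and 4 to 6 lower, 1 to 3 G2/M genes higher and 1 to 5 lower, and 19 to 24 of the other pathway genes higher and 14 to 25 lower. Over all genes, the fits without 1 library called 2735 to 3214 higher and 2874 to 3303 lower. *Tet3* stayed lower in every fit.

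Of the 51 tested members, 16 changed sign in at least 1 fit, and the cause was not tested. With library size alone, log2(FPKM + 1) and log2(FPKM + 0.1), in that order, log2 fold changes became 0.11, 0.10 and 0.10 for *Ccnd2*, 0.0302, 0.0382 and 0.0432 for *Cdk2*, 0.0119, 0.0198 and 0.0211 for *Mcm4*, 0.0207, 0.0215 and 0.0267 for *Mcm5*, 0.0417, 0.0382 and 0.0393 for *Rrm1*, and 0.12, 0.11 and 0.14 for *Ccnb1*. *Rbl1* became 0.00054 and 0.00039 with the first and the second. *Mcm6* ranged from -0.0459 to 0.201, *Ccnb1* from -0.117 to 0.0684 and *Cdk1* from -0.0386 to 0.0449 over the fits without 1 library.

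Same-numbered libraries did not deviate together (correlations of 0.02, 0.23 and -0.05 for numbers 1, 2 and 3), so the numbers were not taken as a pairing. With the replicate number as a block, 9 members were higher and 18 lower, among them 2 G2/M genes higher and 5 lower, and the calls over all genes were 3260 higher and 3373 lower. *Ccne2*, *Mki67*, *Top2a*, *Foxm1* and *Cenpe* passed under the block (adjusted p of 0.0377, 0.00519, 0.0177, 0.0408 and 0.0482) and *E2f1* did not (0.0503), and it changed no other call among the members. Depth limits *E2f2*, *Gins1* and *Cdc6* most, with at most 55 counts in any library.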
